A study of Mus musculus with 2 samples.

Results

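A set of 449 brainstem neuron nuclei was examined, out of 18281 nuclei in the study. These are the nuclei that the authors' annotation places both in the neuron class neuron.2 and in subcluster 12 of its clustering at resolution 0.8. The authors drew the subcluster from the expression of these same nuclei, so its differences from other neurons are given as descriptions and were not tested. The rest of neuron.2, 368 nuclei, lies wholly in subcluster 14, and 3 further nuclei of subcluster 12 carry another class label and were left out. The other neurons of the study, 11062 nuclei, serve as the reference for identity.

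The study profiled single nuclei of the mouse brainstem by droplet sequencing in a model of Dravet syndrome, a childhood epilepsy in which 1 copy of Scn1a is faulty. Both groups were on a C57Bl6 background, written C57BL/6J in the study's methods, and came from crosses of males with a floxed Scn1a allele and Sox2-Cre females. The HET mouse (Scn1a A1783V/WT) carried a knock-in missense change in 1 Scn1a copy and was a female at postnatal day 41. The WT mouse was a female littermate control of the same age, and whether it carried Sox2-Cre is not given in the sources used here. Sox2-Cre acts in the early embryo, so the allele is not limited to a cell type. Each genotype was 1 library, so genotype, animal, dissection and library preparation cannot be told apart, no test between WT and HET was possible, and every difference below carries only an exact 95% interval for counting error.

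Scn1a encodes Nav1.1, a voltage-gated sodium channel that carries much of the fast sodium current of many inhibitory and some excitatory neurons. During development of the dorsal hindbrain and spinal cord, homeobox transcription factors such as Tlx3, Lmx1b and Prrxl1 mark a lineage of excitatory neurons that use glutamate, while Pax2 marks inhibitory lineages. Many dorsal neurons of these regions also release neuropeptides such as somatostatin, neurotensin and the tachykinins, small secreted messengers that act beside the fast transmitter.

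The subcluster held 1782561 UMIs (unique molecular identifiers, each standing for 1 captured RNA molecule) in WT and 886019 in HET. A nucleus had a median of 4742 UMIs in WT and 5780 in HET, against 7936 and 8482 in the other neurons, so the subcluster was shallower than the other neurons in both libraries and 5 of its nuclei had fewer than 2000 UMIs. The authors' coarse reference label was Neurons for all 449 nuclei. All 10 fixed neuron markers were measured, and in both libraries 3 were higher and 7 lower than in the other neurons. Their median log2 ratio to the other neurons was -0.18 in WT and -0.16 in HET. Of them 1, Elavl4, an RNA-binding protein of neurons, was lower by at least 2-fold in both libraries. The libraries share 23 cell barcodes, and none belongs to the subcluster. Of the markers of other cell types, the 11 oligodendrocyte genes summed to 1019 CPM (UMIs of a gene per 1000000 UMIs of all genes) in WT and 1112 in HET, against 635 and 772 in the other neurons, and none of the 11 was at 0. The 5 choroid plexus genes summed to 468 and 179 CPM, against 328 and 131, of which Ttr made up 350 and 59.8 CPM. The 8 astrocyte genes summed to 162 and 220 CPM, against 145 and 156. The part of these transcripts in the results below was not tested.

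Against the other neurons pooled, the subcluster had very high levels of Early B-cell factor transcription factors, and neuropeptide and Hox genes were also higher. A gene was called higher or lower here when its CPM differed by at least 2-fold, in the same direction, in both libraries. Among 5255 genes with enough UMIs, 258 were higher than in the other neurons (4.91%) and 237 were lower (4.51%). Of the genes called higher, 28 were at least 8-fold higher in both libraries. The genes named from here on are the 20 highest and the 10 lowest by the smaller of the 2 library ratios, together with members of gene lists.

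The Ebf genes, which guide the specification and migration of many neurons, were high. Ebf1 stood at 4499 CPM in WT and 3818 in HET, against 378 and 347 in the other neurons. Ebf2 was at 909 and 1164 CPM, against 36.2 and 48.7, a log2 ratio of 4.65 and 4.58. Ebf3 was at 409 and 421 CPM, against 60.6 and 67.8. For all 3 factors the gap between WT and HET was small beside the gap to the other neurons. High Ebf1 was not confined to this subcluster. With both libraries pooled, it was at 4273 CPM here and 3106 in subcluster 14 of neuron.2. It was at 1345 CPM in subcluster 27 of neuron.3 and 1150 in subcluster 9 of neuron.1. Ebf1 was seen in 100% of the nuclei and with at least 3 UMIs in 99.8%. Among the other neurons 51.4% had an Ebf1 UMI and 28.0% had at least 3. In oligodendrocyte nuclei, which serve here as a measure of free RNA and have a median of 2807 UMIs against 5140 in the subcluster and 8204 in the other neurons, 9.76% had an Ebf1 UMI. Ebf2 was seen in 88.9% of the nuclei, in 13.7% of the other neurons and in 1.47% of the oligodendrocytes.

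Homeobox genes of the dorsal excitatory lineage were also above the other neurons, on sparser counts than Ebf1 and Ebf2. Prrxl1, a paired-type homeobox gene, was at 62.3 CPM in WT and 57.6 in HET, against 4.85 and 2.60 in the other neurons. Lmx1b, a LIM homeobox gene, was at 75.2 and 84.6 CPM, against 10.0 and 12.1. Tlx3 was at 37.0 and 18.1 CPM (66 and 16 UMIs), against 1.72 and 1.26. At 1 UMI, Prrxl1 was seen in 29.0% of the nuclei, Lmx1b in 34.5% and Tlx3 in 16.9%. The shares in the other neurons were 3.11%, 7.78% and 1.38%. All 3 were thus higher in both libraries, while Pax2 was lower, at 3.93 and 3.39 CPM against 43.8 and 35.0, a log2 ratio of -3.48 and -3.37. Foxp2, a forkhead factor of several hindbrain populations, was at 7.85 and 7.90 CPM, against 106 and 63.1. Meis2, a homeobox cofactor, was at 49.9 and 71.1 CPM, against 398 and 382. In the list of 90 hindbrain and midbrain lineage transcription factors, 25 were measured, 11 were higher by 2-fold and 6 were lower. Over all 7578 genes that met the same minimum of 50 UMIs, 4.75% were higher and 2.32% lower. Skor2, a transcriptional corepressor, and Satb1, a chromatin organiser, were among the 11, and Nfia and Nfib, nuclear factor I genes, were among the 6.

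Hox genes, which encode position along the head-to-tail axis, were above the other neurons as a group. Of 21, 8 were measured, and all 8 were above the other neurons in both libraries. By 2-fold 7 were so, beside 4.75% of all genes with at least 50 UMIs. Hoxb6 was at 70.1 CPM in WT and 76.7 in HET, against 13.0 and 5.55. Hoxa3 was at 58.3 and 47.4 CPM, against 20.2 and 14.8. The one short of 2-fold in a library was Hoxb2, with log2 ratios of 0.53 and 1.15. The rest ran from Hoxb3, at 70.7 and 47.4 CPM against 31.6 and 21.5, to Hoxb7, at 25.8 and 16.9 CPM against 4.23 and 1.15. Other subclusters held Hox genes too. With both libraries pooled, Hoxb6 was at 72.3 CPM here, 43.3 in subcluster 14 of neuron.2, and 35.9 and 35.8 in subclusters 9 and 24 of neuron.1, and Hoxb4 was at 42.3 CPM here and 35.4 in subcluster 14.

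**Figure D1:**
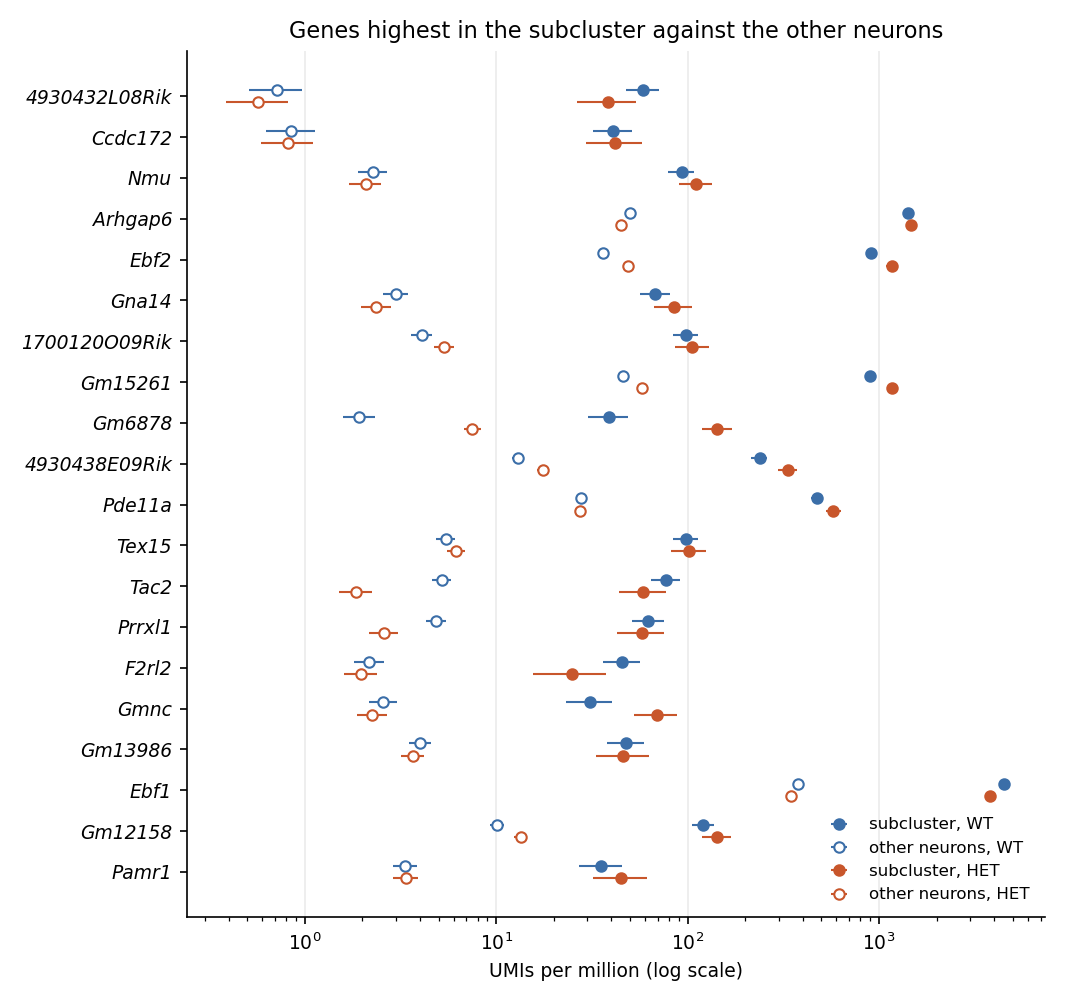
Levels of the 20 genes that stood out most in the subcluster, in CPM on a log axis. Filled points are the subcluster, open points the other neurons, blue is WT and orange is HET, and bars are exact Poisson 95% intervals that cover counting error only; for every gene both filled points lie to the right of both open points, and Gm6878 and Gmnc show the widest gap between WT and HET.

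Neuropeptide precursors were also above the other neurons as a group. Of 26 precursors, 11 were measured, and all 11 were higher in both libraries. By 2-fold 10 were so, beside 4.75% of all genes with at least 50 UMIs. Summed over the list, the precursors came to 905 CPM in WT and 703 in HET, against 228 and 141. Nmu, the precursor of neuromedin U, was at 93.1 and 111 CPM, against 2.26 and 2.08, a log2 ratio of 5.36 and 5.73. Tac2, the precursor of neurokinin B, was at 76.9 and 58.7 CPM, against 5.18 and 1.85. Nts, the neurotensin precursor, was at 126 and 92.5 CPM, against 12.5 and 6.60. Nmu thus had the highest ratio of the 3, and both genotypes stood far above the reference for each. Sst, the somatostatin precursor, was at 188 and 124 CPM, against 42.1 and 31.6. Grp, the gastrin-releasing peptide precursor, was at 34.2 and 21.4 CPM, with log2 ratios of 3.47 and 3.66 to the other neurons. Penk, the enkephalin precursor, was at 83.0 and 93.7 CPM, against 38.4 and 28.5. The remaining measured precursors included Tac1, Cck, Gal, Calca and Adcyap1. Of 35 peptide receptors 9 were measured, and 4 were higher by 2-fold, beside the same 4.75% over all genes. They were Tacr3, the receptor of neurokinin B, at 46.6 and 57.6 CPM against 6.52 and 8.46, and Npy1r, Calcrl and Trhr, receptors in turn of neuropeptide Y, of calcitonin gene-related peptides and of thyrotropin-releasing hormone.

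Each peptide was held by a minority of the nuclei. At 3 UMIs or more, Sst was found in 12.7% of the nuclei, Nts in 8.91%, Nmu in 8.24%, Tac2 in 5.57%, Penk in 4.90%, Cck in 4.23%, Tac1 in 3.56% and Grp in 1.34%. The same cut was met for Nmu in 0.03% of the other neurons, and for Nts in 0.515% of the other neurons and 0.0482% of the oligodendrocytes. At 1 UMI the shares were 17.8% for Nmu and 19.6% for Nts in the subcluster, 1.94% and 6.83% in the other neurons, and 0.87% and 4.92% in oligodendrocytes. Sst at 1 UMI reached 48.3% of the nuclei, but also 25.5% of the other neurons and 20.8% of the oligodendrocytes, so a single Sst UMI did not separate these nuclei from free RNA. At 3 UMIs or more of these 8 peptides, 282 nuclei (62.8%) held none, 118 (26.3%) held 1, 43 (9.58%) held 2 and 6 (1.34%) held 3. At 1 UMI, where free RNA also counts, 62 nuclei (13.8%) held none, 122 (27.2%) held 1, 143 (31.8%) held 2 and 78 (17.4%) held 3. At 1 UMI, Nmu and Nts met in 14 nuclei, 17.5% of 80 Nmu nuclei and 15.9% of 88 Nts nuclei. At 3 UMIs they were held by 37 and 40 nuclei and met in 0. With 0 taken as 3 counts, that allows up to 8.11% of the Nmu nuclei. Nts was in only 8.91% of all the nuclei at this cut, so the 0 does not show that the 2 peptides avoid each other. Nmu also met Penk, Cck, Tac1 and Grp in 0 nuclei at 3 UMIs. Of all the nuclei only 4.90%, 4.23%, 3.56% and 1.34% held these at that cut, so these counts of 0 show no avoidance either. At the same cut, Nmu and Tac2 met in 9 nuclei, 24.3% of the Nmu nuclei and 36.0% of the Tac2 nuclei. Sst and Tac2 met in 8 nuclei, of 57 Sst nuclei and 25 Tac2 nuclei, and Nts and Penk met in 7, 17.5% of the Nts nuclei and 31.8% of the Penk nuclei. All these counts at 3 UMIs were 9 or fewer, and whether the pairs of peptides differ in how often they share a nucleus was not tested.

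Several of the highest genes are signalling molecules. Arhgap6, a GTPase-activating protein, was at 1416 CPM in WT and 1468 in HET, against 49.9 and 44.9. Gna14, a G protein alpha subunit, was at 67.9 and 84.6 CPM, against 2.99 and 2.37. Pde11a, a phosphodiesterase that degrades cyclic nucleotides, was at 473 and 578 CPM, against 27.7 and 27.6. All 3 had log2 ratios above 4 in both libraries. F2rl2, a protease-activated receptor, was at 45.4 and 24.8 CPM, against 2.17 and 1.97. Tex15, known from male germ cells, was at 97.6 and 102 CPM, against 5.44 and 6.17. Gmnc, a coiled-coil protein known from multiciliated cells, was at 30.9 and 68.9 CPM, against 2.57 and 2.25. Ccdc172, a coiled-coil protein, was at 41.0 and 41.8 CPM, against 0.85 and 0.82, and Pamr1, a secreted protein with peptidase-like domains, was at 35.3 and 45.2 CPM, against 3.36 and 3.38.

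Some receptors and channels that shape excitability also differed from the other neurons. By 2-fold in both libraries, 4 of 13 measured calcium channel subunits were higher and 1 was lower. Of 28 potassium channels outside the Kv1 and Kv3 families 4 were higher. Of 9 Kv1 and Kv3 channels 1 was higher and 1 lower. Of 8 sodium channel subunits 1 was lower, as was 1 of 5 serotonin receptors. Of 11 GABA-A receptor subunits 0 passed 2-fold. Grm5, a metabotropic glutamate receptor, was at 2482 CPM in WT and 3020 in HET. Its log2 ratio to the other neurons was 1.27 and 1.44. With both libraries pooled, Grm5 was at 2661 CPM here and 2288 in subcluster 14 of neuron.2. It was at 2864 CPM in subcluster 24 of neuron.1. Cacna2d1, an auxiliary calcium channel subunit, had log2 ratios of 1.98 in both libraries, while its relative Cacna2d3 was lower, at -1.96 and -1.34. Cacna1e, the pore of R-type channels, stood at 1.57 and 1.67, and Cacna1h, a T-type pore, at 2.33 and 1.72. Calcium channels were therefore higher for some subunits and lower for another within the same nuclei. Glra3, a glycine receptor subunit, had log2 ratios of 1.76 and 2.22. Grin3a, an NMDA receptor subunit, had 1.53 and 1.35. Of the potassium channels, Kcnt2, a sodium-activated channel, was at 608 and 720 CPM against 99.1 and 103, and Kcnd3, an A-type channel, was at 380 and 586 against 109 and 133. Kcnc2 was also higher, at 1.20 and 1.04, and Kcna1 was lower, at -1.32 and -1.20. Scn9a, the sodium channel Nav1.7, was lower, at -1.93 and -1.80, and Htr2c, a serotonin receptor, was lower at -2.07 and -2.31. Low Htr2c was not confined to this subcluster. With both libraries pooled, it was at 163 CPM here and 97.6 in subcluster 14 of neuron.2. It was higher than here in 7 of the 13 other subclusters. Calb1 and Necab1, calcium-binding proteins, were higher, with log2 ratios of 2.09 and 2.78 for Calb1 and of 2.59 and 2.77 for Necab1. Of 26 measured genes of axon guidance 5 were higher by 2-fold, namely Sema3c, Sema5a, Plxna2, Nrp1 and Robo2, while Slit2, with log2 ratios of -2.71 and -2.18, Slit3, with -2.62 and -2.62, and Robo1, with -1.55 and -1.63, were the 3 lower ones. Of 20 cadherins 6 were lower, and Cdh8 alone was higher by 2-fold, at 893 and 1023 CPM against 289 and 356. Over all genes with at least 50 UMIs, 4.75% were higher by 2-fold and 2.32% lower. A single higher cadherin of 20 is thus near the share over all genes.

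The 10 lowest genes held Pax2, Foxp2 and Slit3 from above. Among the others, Lrmda was at 8.41 CPM in WT and 10.2 in HET, against 101 and 107 in the other neurons. Fmn1, a formin that builds actin filaments, was at 6.17 and 12.4 CPM, against 89.0 and 86.7. These 5 genes had between 7 UMIs (Pax2) and 41 UMIs (Slit3) in the 308 WT nuclei. The other 5 of the 10 were 6330576A10Rik, 9330159M07Rik, Trim43c, Lypd6b and Gm47027.

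Of the glutamate transporters that fill synaptic vesicles, the subcluster held Slc17a6 and little else. Slc17a6 was at 129 CPM in WT and 158 in HET, against 71.9 and 82.1 in the other neurons, short of 2-fold. Slc17a7 had 4 and 5 UMIs and Slc17a8 had 5 and 2. Of the inhibitory genes, Gad2, which makes GABA, was at 20.8 and 20.3 CPM, against 69.7 and 68.6. Slc32a1, which loads GABA and glycine into vesicles, was at 21.3 and 20.3 CPM, against 43.9 and 25.4. By nucleus, Slc17a6 was seen in 49.4% (44.7 to 54.2), in 38.8% of the other neurons and in 12.3% of the oligodendrocytes. Any of Gad1, Gad2, Slc32a1 and Slc6a5 was seen in 24.3% (20.4 to 28.5), in 58.3% of the other neurons and in 21.4% of the oligodendrocytes. After each nucleus was thinned to 1000 UMIs, the Slc17a6 share was 13.0% in the subcluster, 7.73% in the other neurons and 4.40% in the oligodendrocytes, and the inhibitory share was 6.80%, 19.3% and 8.11%. At least 3 UMIs of Slc17a6 were found in 6.68% of the nuclei, against 9.60% of the deeper other neurons. At least 3 UMIs of any inhibitory gene were found in 3.79% of the nuclei, in 3538 of the 11062 other neurons and in 0.386% of the oligodendrocytes. The inhibitory share was thus below that of the other neurons in each of these counts, and it was above that of the oligodendrocytes at 3 UMIs but not after thinning. Only 1 of the 3 fixed glutamate markers was measured, so the subcluster was given no transmitter name. It was not named from other lists either. Of 10 Purkinje cell markers, 8 were above the other neurons, among them Calb1, Car8 and Skor2. By 2-fold 3 were so, beside 4.75% of all genes with at least 50 UMIs. But Pcp2, the marker most specific to that cell, had 0 UMIs, which allows up to 1.68 CPM in WT and 3.39 in HET. Ppp1r17 had 1 and 2.

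Every one of the 20 named genes was highest in this subcluster when the 13 other neuron subclusters of at least 100 nuclei were ranked. Its partner in neuron.2, subcluster 14, came nearest for several of them. With both libraries pooled, Ebf1 was at 4273 CPM here and 3106 in subcluster 14, Prrxl1 at 60.7 and 45.7, and Nts at 115 and 85.2. Ebf2 separated the pair more, at 994 and 282 CPM. Subcluster 14 exceeded it in Slc17a6, with 174 CPM against 139, and in no other subcluster was Slc17a6 higher. Calb1 was higher in 1 other subcluster, 22 of neuron.6, with 267 CPM against 109. Scn1a was higher in 12 of the 13. Over all genes, the correlation of log2(CPM + 10) across genes was largest with subcluster 0 of neuron.1 (r = 0.974), and that with subcluster 14 ranked 4th (r = 0.965), so the class label and the whole profile did not order the neighbours alike. Subcluster 0 of neuron.1 holds 2864 nuclei and subcluster 14 holds 368, and the effect of set size on r was not tested. Genes are not independent replicates, and these correlations are descriptions.

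**Figure D2:**
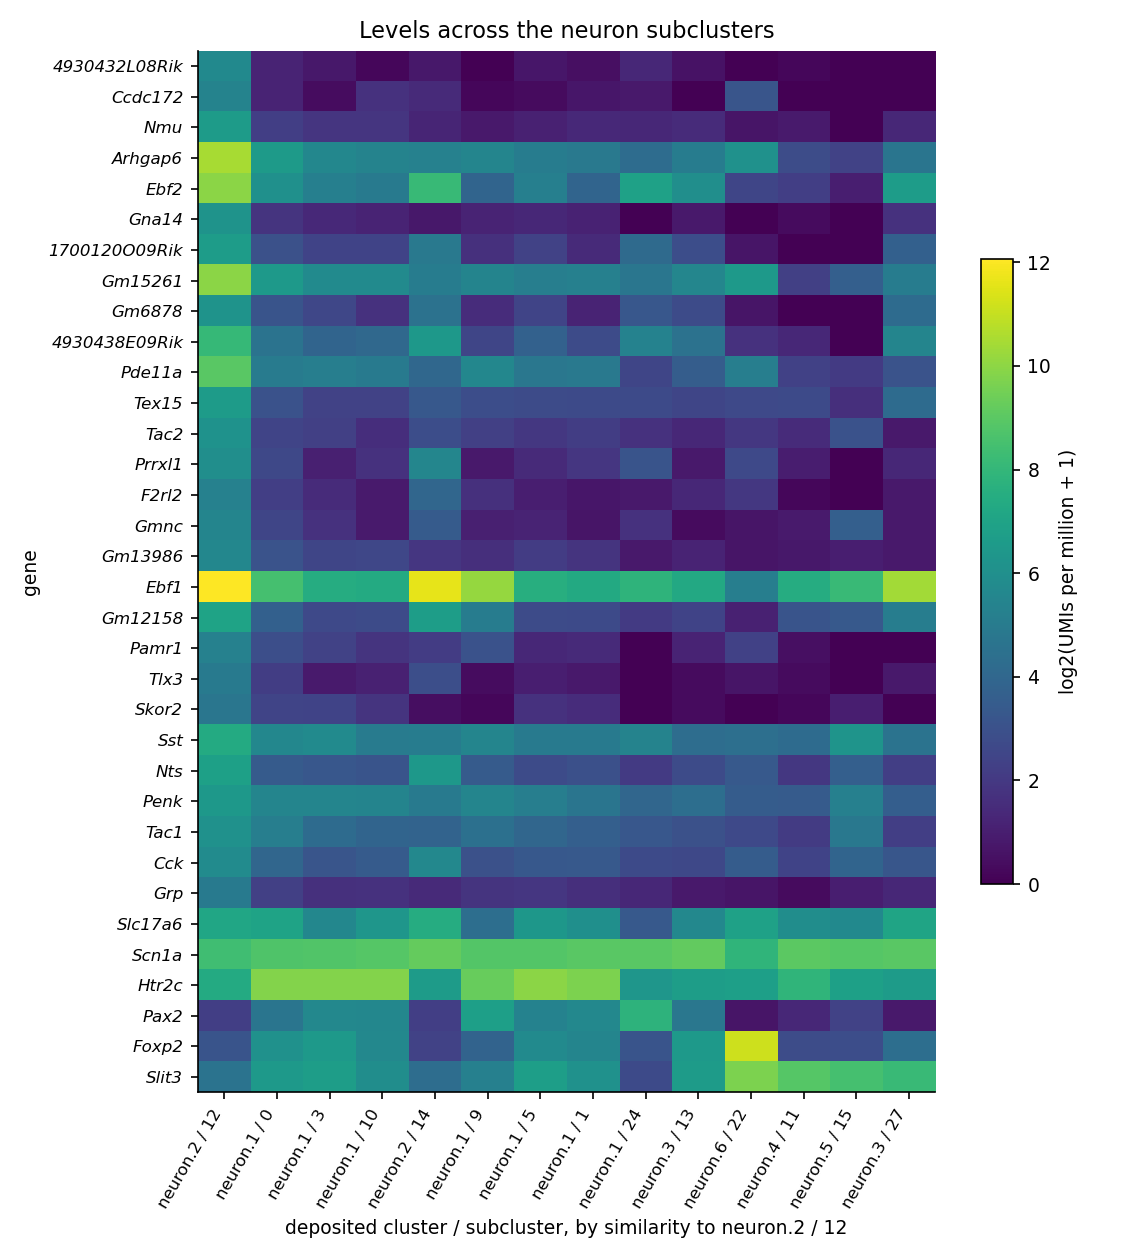
Levels of 34 genes in the subcluster and 13 other neuron subclusters, as log2(CPM + 1) in colour, with columns ordered by similarity to the subcluster. Ebf1 is highest in the subcluster (4273 CPM) and next highest in subcluster 14 of neuron.2 (3106 CPM), while Pax2 is higher in 10, Foxp2 in 9 and Slit3 in 11 of the 13 others.

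Some of the genes called higher cannot be counted as separate findings, because they overlap on the genome. All positions are on GRCm38 with the GENCODE vM21 annotation. Ebf2 (chromosome 14, 67233292 to 67430918, plus strand) overlaps 1700120O09Rik, 4930438E09Rik and Gm6878, all on the minus strand. Nmu (chromosome 5, 76333495 to 76363788, minus strand) overlaps 4930432L08Rik, and Ebf1 (chromosome 11, 44617317 to 45008091, plus strand) overlaps Gm12158. Arhgap6 (chromosome X, 168795099 to 169304435, plus strand) overlaps Gm15261 and Hccs. Gm15261 was at 893 CPM in WT and 1170 in HET, against 46.1 and 57.8 in the other neurons. 4930438E09Rik was at 238 and 334, against 13.1 and 17.6. Both antisense genes were thus above the other neurons, as were the genes they overlap. Of 257 genes called higher with a position, 64 (24.9%) lie within 100000 bases of another such gene, against 141 of 4948 (2.85%) of the other genes tested. Of those 64, 49 overlap a called gene and 46 do so on the opposite strand. How the counting treated strand is not given in the sources used here, so the values of such pairs are uncertain.

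At the authors' finest clustering, resolution 1.5, the subcluster came apart into a larger set of 324 nuclei and a smaller one of 123, with 2 nuclei elsewhere. The larger set held 72.1% of the WT and 72.3% of the HET nuclei, so the genotypes were split alike. Between these sets 112 of 4632 genes were higher in the smaller and 212 in the larger, by 2-fold in both libraries. The larger set carried Nmu at 139 CPM in WT and 164 in HET, and the smaller had 0 UMIs in both, which allows up to 5.20 and 10.8 CPM. Bnc2, a zinc finger factor, likewise stood at 261 and 264 CPM in the larger and at 0 in the smaller. Oprm1, the mu opioid receptor, was at 129 and 162 CPM in the larger and at 3.47 and 3.60 in the smaller. Nts followed the larger set, at 178 and 134 CPM against 19.1 and 7.20, and so did Tac2, at 111 and 83.5 against 6.93 and 7.20. Cck was likewise higher in the larger set, at 86.2 and 46.8 CPM against 19.1 and 10.8, while Tac1 and Penk were higher in the smaller.

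The smaller set had its own genes. Htr4, a serotonin receptor, was at 189 CPM in WT and 238 in HET, against 14.2 and 16.7 in the larger. Tafa1, a secreted chemokine-like protein, was at 2577 and 2628 CPM, against 218 and 209. Dcc, a netrin receptor for growing axons, was at 3804 and 4209 CPM, against 685 and 493. Skor2 also stood apart, at 78.0 and 61.2 CPM against 4.18 and 3.34, and Sox5, a neuronal transcription factor, at 1350 and 1437 against 262 and 401. Tac1 was at 153 and 101 CPM, against 41.9 and 21.7. Ebf1 was present in both sets, at 3265 and 2902 CPM in the smaller and 5102 and 4281 in the larger, while Ebf2 was lower in the smaller by 2-fold, at 322 and 364 CPM against 1196 and 1546. Slc17a6 was at 137 and 133 in the smaller and 126 and 165 in the larger. Those sets were cut from the same counts, so their differences are not tests.

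**Figure D3:**
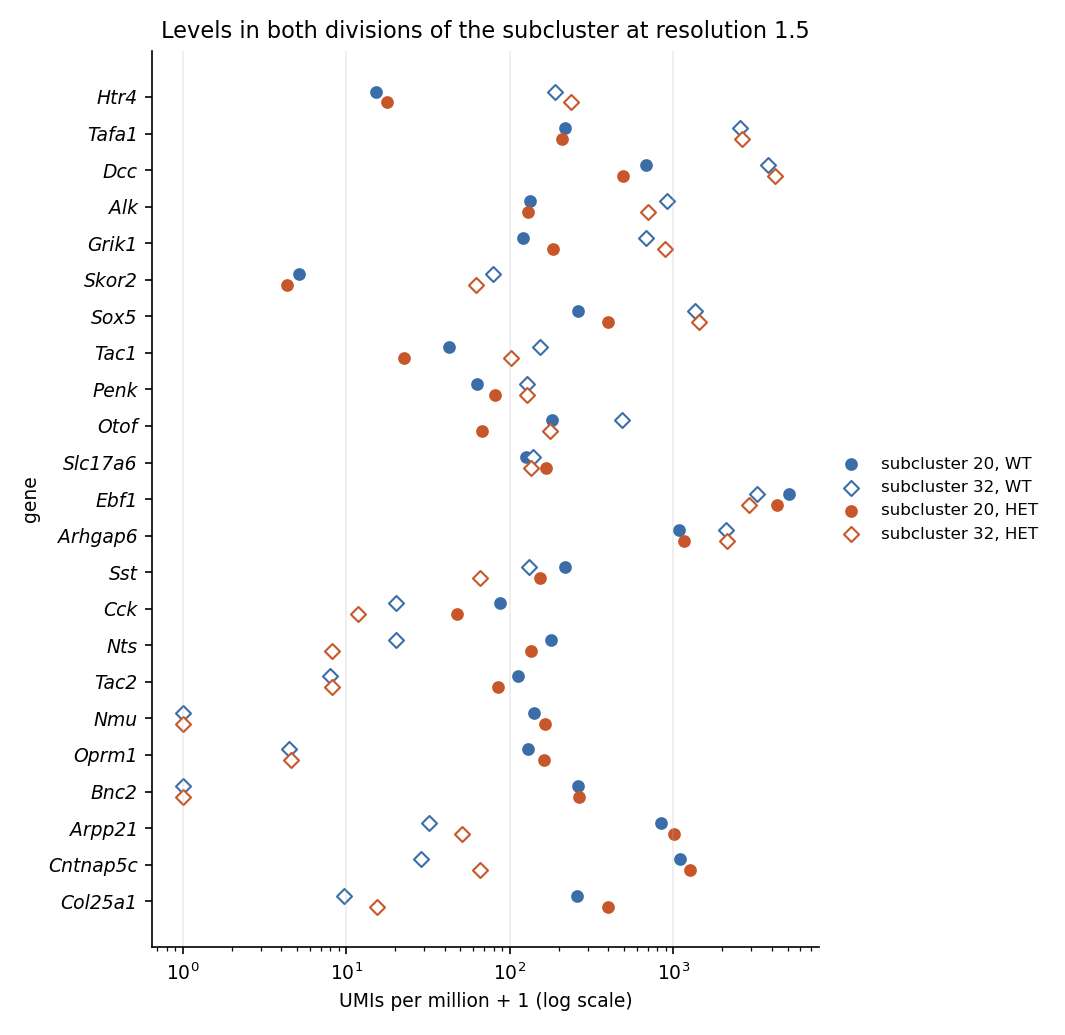
Levels of 23 genes in the 2 sets that the finest clustering made of the subcluster, in CPM + 1 on a log axis; filled circles are the larger set, open diamonds the smaller, blue WT and orange HET. Nmu and Bnc2 sit at 0 CPM in the smaller set in both libraries, while Tafa1, Dcc and Htr4 lie to the right in the smaller set.

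The subcluster took up 3.33% of the WT nuclei (308 of 9259, interval 2.97 to 3.71) and 1.56% of the HET nuclei (141 of 9022, interval 1.32 to 1.84). Among neurons alone the shares were 5.03% (4.50 to 5.61) and 2.61% (2.21 to 3.08). With 1 dissection for each genotype, this difference cannot be told apart from how much of each region was taken. The intervals here and below cover counting error only.

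Scn1a itself differed little. It was at 332 CPM in WT (592 UMIs) and 319 in HET (283 UMIs), a log2 ratio of HET over WT of -0.06 (-0.27 to 0.15). In the other neurons the ratio was 0.19, at 433 and 496 CPM. The A1783V allele is a missense change, so its transcript counts along with the normal one in this gene-level table and the level checks the genotype labels only weakly.

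Within the subcluster, most genes differed by less than 2-fold between the genotypes, and the lower genes outnumbered the higher. Of 4660 genes with at least 100 UMIs in all, 32 were higher in HET by 2-fold (0.687%) and 132 were lower (2.83%). At any size, the interval of the ratio excluded 0 for 1417 of the 4660, with 643 higher and 774 lower. Over the same genes the other neurons had 12 higher (0.258%) and 39 lower (0.837%). The other neurons held 57500133 UMIs in WT and 52386542 in HET, so counting error moved their ratios far less. The numbers past 2-fold therefore do not compare the size of the genotype difference between the 2 sets of neurons. The median log2 ratio of HET over WT was -0.04 in the subcluster and -0.02 in the other neurons. Called in both were 11 of the higher genes, 34.4% of the 32 in the subcluster and 91.7% of the 12 elsewhere, and 20 of the lower genes, 15.2% of 132 and 51.3% of 39. Of the 258 genes that were high in the subcluster in both libraries, 6 were higher in HET (2.33%) and 3 lower (1.16%), and their median ratio was 0.11, against 0.03 in the other neurons. Of the 20 named identity genes 2 passed 2-fold. Gm6878 was at 38.7 CPM in WT and 143 in HET, a log2 ratio of 1.89 (1.45 to 2.33). The other was Gmnc, with 1.16 (0.61 to 1.71). The ratio in the other neurons was 1.96 for Gm6878 and -0.19 for Gmnc. Gm6878 overlaps Ebf2 on the opposite strand, and Ebf2 had a ratio of 0.36 (0.24 to 0.47) in the subcluster.

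**Figure D4:**
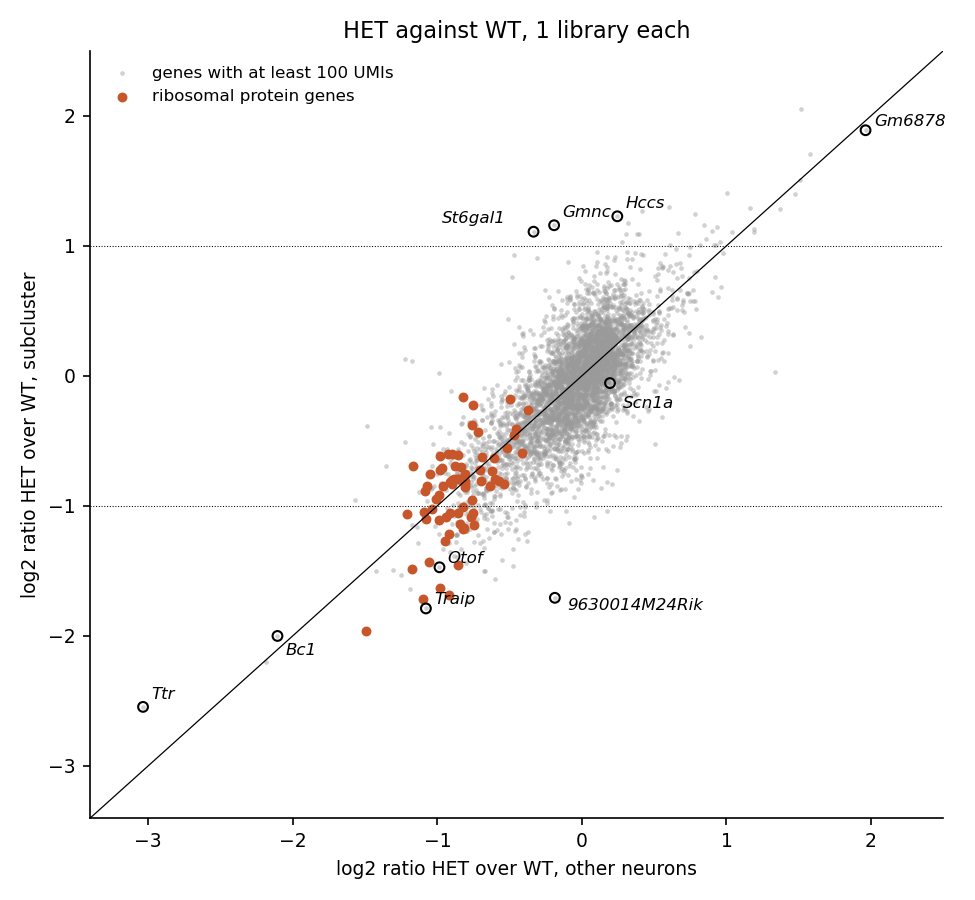
Log2 ratio of HET over WT for 4660 genes, in the subcluster against the other neurons, with ribosomal protein genes in orange and dotted lines at 2-fold. Ttr and Bc1 lie at the far lower left, ribosomal protein genes lie below 0 in both, and Hccs, Gmnc and St6gal1 lie above 2-fold in the subcluster but near or below 0 in the other neurons.

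Of the 12 genes highest in HET, 8 are unnamed gene models and all 12 were also above WT in the other neurons. 5530401A14Rik was at 174 CPM in WT and 569 in HET, a log2 ratio of 1.71 (1.50 to 1.91), and at 1.58 in the other neurons. Gm13187 was at 19.1 and 79.0 CPM, a log2 ratio of 2.05 (1.44 to 2.69), and at 1.51 in the other neurons. Hccs, an enzyme that attaches heme to cytochromes, was at 82.5 CPM in WT and 193 in HET, a log2 ratio of 1.23 (0.90 to 1.55), and 0.24 in the other neurons. Hccs overlaps Arhgap6 on the opposite strand, and Arhgap6 itself had a ratio of 0.05 (-0.05 to 0.15). Dock2, a guanine nucleotide exchange factor for Rac best known in immune cells, was at 34.8 and 82.4 CPM, with 1.24 (0.74 to 1.76) against 0.78. Nell1os, an antisense RNA, was at 67.9 and 167 CPM, with 1.30 (0.94 to 1.66) against 0.60. Of these 12, 8 passed 2-fold in the other neurons as well.

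The genes lowest in HET were led by a transcript of another cell type. Ttr, the transthyretin that the choroid plexus secretes, was at 350 CPM in WT and 59.8 in HET, a log2 ratio of -2.55 (-2.98 to -2.14), and it stood at -3.04 in the other neurons. Of the other choroid plexus markers, Enpp2 was at 92.0 and 86.9 CPM, Kcnj13 at 21.3 and 30.5, and Folr1 and Kl had 9 UMIs or fewer between them in either library. Bc1, a small cytoplasmic RNA of dendrites, was at 2205 and 551 CPM, with an interval of -2.14 to -1.86 for the log2 ratio, against a ratio of -2.11 in the other neurons. The 12 lowest include the ribosomal protein genes Rps16, Rps26 and Rps10, and all 12 were below WT in the other neurons too, 7 of them by 2-fold. Rps16 was at 105 CPM in WT and 27.1 in HET, a log2 ratio of -1.96 (-2.64 to -1.34). Traip, a ubiquitin ligase, was at 85.8 and 24.8 CPM, with -1.79 (-2.51 to -1.14), against -1.08 elsewhere. Traip starts 445 bases beyond the end of Camkv on the same strand, and Camkv had a ratio of -0.44 (-0.77 to -0.13). Spcs1, a signal peptidase subunit, was at 56.7 and 16.9 CPM, a ratio of -1.74 against -0.78. The gap was widest for 9630014M24Rik, at 51.6 and 15.8 CPM, with -1.71 (-2.63 to -0.89) against -0.19 in the other neurons.

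By gene list, the genes of protein synthesis and energy supply were lower in HET, and those of axon guidance, cadherins, GABA-A receptors and metabotropic glutamate receptors were slightly higher. Of 80 measured ribosomal protein genes, all 80 were lower in HET, 29 of them by 2-fold, beside 353 of all 7578 genes at that minimum (4.66%), with a median log2 ratio of -0.83 in the subcluster and -0.86 in the other neurons. Of 71 measured genes of oxidative phosphorylation, 62 were lower, 9 were higher and 10 of the lower ones passed 2-fold, with medians of -0.61 and -0.63. Over all 7578 genes with at least 50 UMIs the median was -0.08 in the subcluster and -0.07 in the other neurons, and 42.2% were higher in HET. Heat shock genes were lower in 11 of 13, with a median of -0.53 against -0.55 elsewhere. For these 3 lists the subcluster's medians lay close to those of the other neurons. The share of ribosomal UMIs that the authors recorded for each nucleus had a median of 0.773% in WT and 0.417% in HET, and in the other neurons 0.567% and 0.332%. The part of that library-wide difference in each single gene was not tested.

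The lists of receptors differed among themselves. Of 11 GABA-A receptor subunits, 10 were higher in HET, none by 2-fold (of all genes at the same minimum 1.13% were), with a median log2 ratio of 0.22 against 0.17 in the other neurons. Gabra4 led them, at 32.5 CPM in WT and 59.8 in HET, a ratio of 0.88 (0.31 to 1.44). All 5 measured metabotropic glutamate receptors were higher, with medians of 0.28 and 0.27. The medians were near 0 for AMPA and NMDA receptors, at -0.02 with 4 higher and 5 lower, and for kainate and delta receptors, at -0.01 with 2 higher and 4 lower. For serotonin receptors the median was -0.23, with 2 higher and 3 lower, but 0.28 with no UMI minimum. For neuropeptide receptors it was -0.11, with 3 higher and 6 lower, beside -0.08 over all genes. Of 26 axon guidance genes 22 were higher, with medians of 0.27 and 0.14, and of 20 cadherins 16 were higher, with medians of 0.21 and 0.11. The 8 measured sodium channel subunits were divided, with 3 higher and 5 lower and a median of -0.04 in both sets of neurons. Of 28 potassium channels outside the Kv1 and Kv3 families, 19 were higher, with a median of 0.13 against 0.09.

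**Figure D5:**
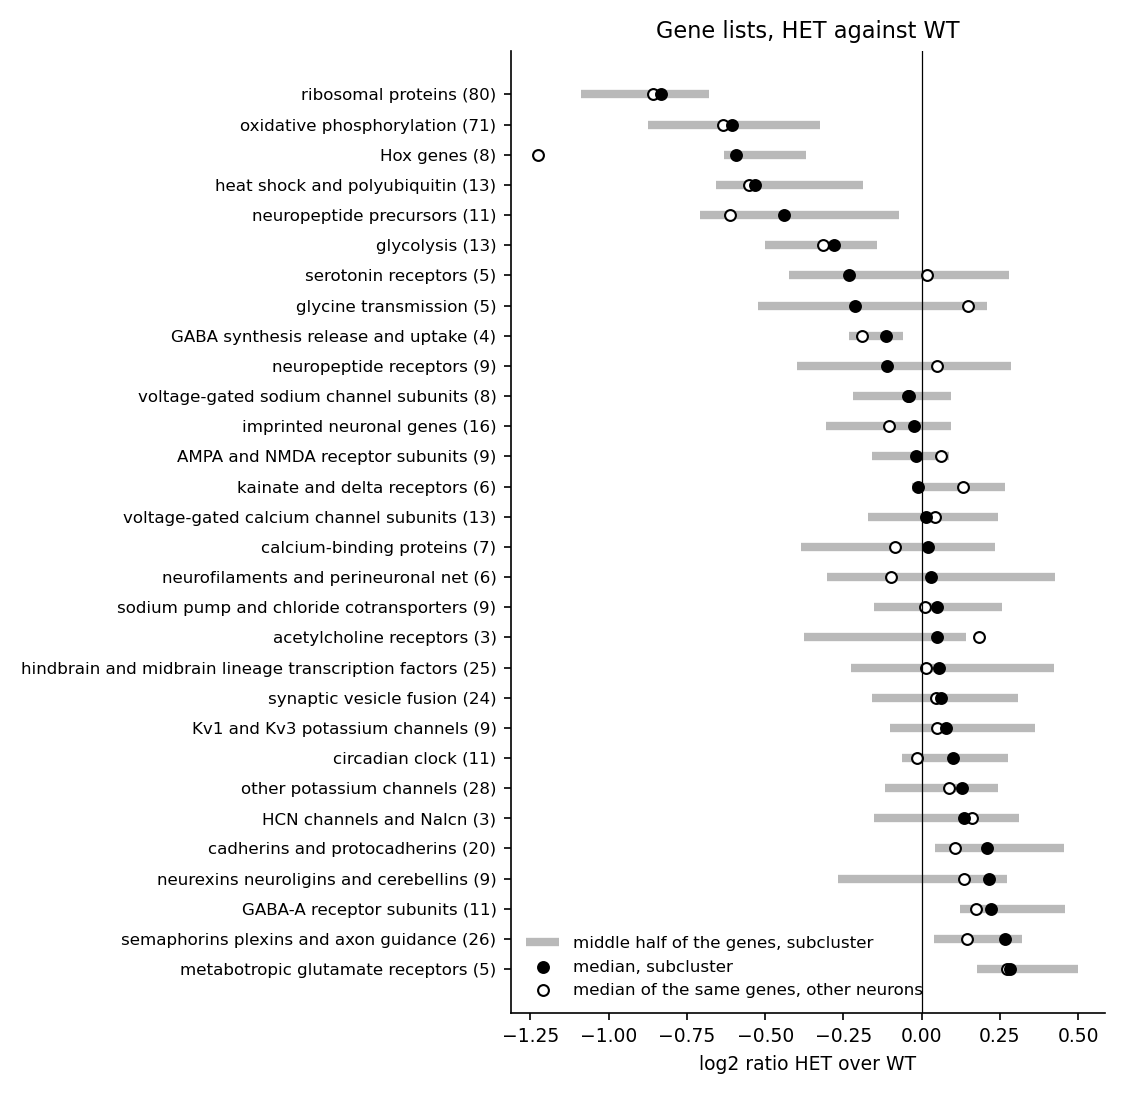
Log2 ratio of HET over WT by gene list, for lists with at least 3 measured genes; filled points are the list's median in the subcluster, open points that in the other neurons, and grey bars span the lower to the upper quartile of the list's genes in the subcluster. Ribosomal protein and oxidative phosphorylation genes lie farthest below 0, at -0.83 and -0.61, and metabotropic glutamate receptors and axon guidance genes lie highest, at 0.28 and 0.27.

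The peptides that mark the subcluster were mostly lower in HET. Of 11 measured precursors 9 were lower and 2 higher, with a median log2 ratio of -0.44 in the subcluster and -0.61 in the other neurons, where all 11 were lower. Sst had a ratio of -0.60 (-0.92 to -0.28), Tac1 -0.74 (-1.28 to -0.23), Cck -0.82 (-1.44 to -0.25) and Nts -0.44 (-0.82 to -0.07). Adcyap1, the precursor of a pituitary adenylate cyclase activator, was the only one past 2-fold, at 41.5 CPM in WT and 11.3 in HET (74 and 10 UMIs), with -1.88 (-3.00 to -0.92). Nmu, at 0.25, and Penk, at 0.17, were the 2 higher ones. Of the 8 measured Hox genes 7 were lower in HET, with a median of -0.59 in the subcluster and -1.23 in the other neurons, where all 8 were lower and 6 by 2-fold. Otof, a calcium sensor of vesicle release, falls outside the naming rule and is 1 of the 132 genes called lower. It was at 279 CPM in WT and 100 in HET, a ratio of -1.47 against -0.99 elsewhere. It was seen in 46.1% of the WT nuclei and 31.9% of the HET nuclei. Slc17a6 was seen in 45.8% and 57.4% of them, with medians of 4742 and 5780 UMIs, and its ratio was 0.29.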

How the data were processed

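Nuclei were isolated from the brainstem of 1 WT and 1 HET mouse and sequenced with 10x Chromium 3′ chemistry. Per the study's methods, reads were counted with Cell Ranger on mm10 and analysed in Seurat 4.1, with nuclei of at least 1000 genes and at most 15% mitochondrial reads kept. The authors deposited raw UMI counts per gene and nucleus, with class labels, a doublet score and percent values for mitochondrial, ribosomal and hemoglobin UMIs for each nucleus. Doublets were removed before deposit, by a caller not given in the sources used here, and mitochondrial and hemoglobin genes are not in the count table. The Cell Ranger version and the treatment of strand are not given in the sources used here.

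UMIs were summed over the nuclei of each library and divided by their total (CPM). Ratios carry exact conditional binomial 95% intervals, levels exact Poisson and shares Clopper-Pearson intervals. A count of 0 was set to 3 counts. A call needs a 2-fold difference. In HET over WT, genes with at least 100 UMIs in both libraries together were used, and list members with at least 50. For identity, a gene also qualified when its level in the other neurons predicted 100 UMIs in the subcluster. Named genes were the 20 highest and 10 lowest in identity by the smaller library ratio, the 12 highest and 12 lowest in HET over WT, and list members, and some genes that this rule names are not reported here. The procedure was tested on simulated data drawn as Poisson counts, as the intervals assume. That test could not cover variation between nuclei or animals. The members and the lists were chosen with earlier results of these data known. Sums and exact intervals were computed with scipy 1.17.1, numpy 2.4.6 and pandas 2.3.3 under Python 3.11.15, and figures were drawn with matplotlib 3.10.9. The alternatives tried concern scaling, filters on UMIs, depth and doublet score, the reference neurons, the finest clustering and weighting by nucleus.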

Additional observations from a re-analysis of the deposited data

Results flagged for a closer look

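In 4 genes the 2-fold difference between the genotypes in the subcluster ran against the direction in the other neurons. For Gmnc, described above, the interval in the other neurons included 0 (-0.55 to 0.17). For the other 3 it did not, and for none of them was that difference tested, because each genotype is 1 library. St6gal1, a sialyltransferase, was at 31.4 CPM in WT and 67.7 in HET (56 and 60 UMIs), a log2 ratio of 1.11 (0.56 to 1.66), against -0.33 in the other neurons. Tbc1d1, a GTPase-activating protein for Rab, was at 62.3 and 29.3 CPM (111 and 26 UMIs), a ratio of -1.09 (-1.76 to -0.46), against 0.08. Gm49678, an unnamed gene model, was at 79.1 and 38.4 CPM (141 and 34 UMIs), a ratio of -1.04 (-1.63 to -0.49), against 0.17.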

How the results depend on the processing

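No paired analysis was possible because each genotype is 1 library, and for the same reason no library could be left out. The counts of genes past 2-fold between HET and WT moved with the filter. At 50 UMIs they were 86 higher and 353 lower of 7578 genes, and at 200 UMIs 12 and 31 of 2387. In the larger set of the finest clustering alone, an alternative chosen after seeing the data, they were 20 and 74 of 3264, of which 17 and 53 were among those of the whole subcluster. At 200 UMIs, 144 genes were lower than in the other neurons. The subcluster's share was 5.03% in WT and 2.61% in HET of neurons. Shares of nuclei with Slc17a6, any vesicular glutamate transporter and any inhibitory gene were 13.0%, 13.4% and 6.80% after thinning to 1000 UMIs and 6.68%, 7.57% and 3.79% at 3 UMIs. The ribosomal protein median was -0.79 with the median of all genes set to 0 and -0.78 in the larger set alone, where the medians of GABA synthesis and of kainate and delta receptor genes were -0.46 and -0.20. Some lists whose interval for the median included 0 changed sign with no UMI minimum. Serotonin receptors went from -0.23 to 0.28, and HCN channels and Nalcn from 0.14 to -0.14. Among lists whose interval excluded 0, the median of 2 changed sign. That of immediate early genes went from -0.71 to 0.24 in the larger set alone, and that of adrenergic and dopamine receptors from 1.53, which rests on Drd2, to -0.10 with no UMI minimum. Against the rest of neuron.2, Foxp2, Pax2 and Slit3 were no longer lower, with log2 ratios of 1.25, 0.024 and 0.38, and the smaller ratios of Ebf1, Prrxl1 and Gm12158 were 0.43, 0.38 and 0.21. The causes were not tested beyond what the construction of each alternative shows. Under the other alternatives the higher genes numbered 27 to 35 and the lower 111 to 179.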
